A study of Mus musculus with 14 samples.

Results

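The genes described here encode 55 protein components of the cytosolic ribosome, and the data are 2 histone marks over their promoters in the mouse heart. The 55 genes are a given list of ribosomal protein symbols, and no measured value chose them. For each gene, the promoter region that lists the gene and had the highest mean signal over the libraries of a table represents it. In these regions 54 of the 55 genes were found at 0% fat for both marks, 54 for acetylation at 10 and 60% fat, and all 55 for butyrylation at 10 and 60% fat, among 15530, 15713 and 14509 genes with a promoter region in the same 3 tables and 16104 in any of them. Rpl15 is the gene found in the third table alone.

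The marks are acetylation (H3K9ac) and butyrylation (H3K9Bu) of lysine 9 on histone H3, measured by chromatin immunoprecipitation sequencing (ChIP-seq). All hearts came from male C57Bl/6J mice, 12 weeks old, a wild-type inbred strain, and the labels name no transgene or altered allele. One set of groups had transverse aortic constriction (TAC), which narrows the aorta and loads the left ventricle with pressure, and the groups set against them had a sham operation. Each surgery was paired with a diet that held 0, 10 or 60% of its energy as fat. The diet began 4 days ahead of the operation, and hearts were collected 1 week after it. Each combination of mark, surgery and diet is 1 library from a pool of 3, made from nuclei of heart tissue, so it holds all cell types of the heart. Differences between single libraries therefore have no replicate check, and fewer cells of a type and less mark per cell cannot be told apart.

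Ribosomal proteins wrap the ribosomal RNA of the large subunit, which joins amino acids, and of the small subunit, which reads the messenger RNA. Their genes are among the most transcribed in any cell, and their messenger RNAs start with a terminal oligopyrimidine tract, a run of C and T at the transcription start through which growth signalling by mTOR sets their translation. A heart under pressure load enlarges its muscle cells, and that growth needs protein synthesis. H3K9ac is a mark of active promoters, and H3K9Bu carries a longer acyl chain on the same residue.

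Runs of C and T near the annotated start were searched for in the promoter sequences of these genes. RefSeq promoter windows (GRCm38.p6, the mm10 assembly) were matched for 45 of the 55 genes, and each printed line runs from 80 bases before to 20 bases after the annotated start, with the longest run of C or T near that start in capitals. A capitalised run can lie wholly before or after the annotated start, so it need not be the tract that begins the messenger RNA. In Rpl4 and Rpl19 it ends before that start, and in Rpl24 it lies after it. Rps6, Rpl4, Rpl19 and Rpl38 are examples from the genes with both marks measured in regions centred within 2000 bp of their own starts. Rplp2 is shown because the region that represents it lies elsewhere, and Rpl24 for its short run. The runs shown, apart from that of Rpl24, have 10 to 14 bases, longer than the median of 7 in these promoters. Rps6 lies at chr4:86857348-86857447, minus strand, Rpl4 at chr9:64173307-64173406, plus strand, Rpl19 at chr11:98026844-98026943, plus strand, Rpl38 at chr11:114668500-114668599, plus strand, Rplp2 at chr7:141447571-141447670, plus strand and Rpl24 at chr16:55966195-55966294, plus strand.
Rps6: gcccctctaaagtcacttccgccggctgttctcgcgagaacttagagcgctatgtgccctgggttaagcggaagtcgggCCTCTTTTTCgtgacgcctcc
Rpl4: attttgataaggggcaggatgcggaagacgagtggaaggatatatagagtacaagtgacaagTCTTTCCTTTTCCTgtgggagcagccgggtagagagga
Rpl19: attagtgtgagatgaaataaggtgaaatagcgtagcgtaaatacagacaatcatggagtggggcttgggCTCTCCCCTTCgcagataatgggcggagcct
Rpl38: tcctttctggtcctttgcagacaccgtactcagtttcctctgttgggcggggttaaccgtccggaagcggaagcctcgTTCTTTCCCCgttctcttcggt
Rplp2: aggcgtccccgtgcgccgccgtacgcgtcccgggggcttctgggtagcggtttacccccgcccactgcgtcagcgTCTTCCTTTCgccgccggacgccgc
Rpl24: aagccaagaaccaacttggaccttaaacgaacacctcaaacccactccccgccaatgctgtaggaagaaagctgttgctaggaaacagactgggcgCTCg
A run of at least 8 C or T on the gene's own strand, within 20 bases of the annotated start, was present in 22 of the 45 promoters (48.9%), against 15.4% of 11037 promoters in the tables. On the other strand the run was present in 4 of the 45 (8.89%), against 15.4% of all. The longest run had a median of 7 bases in the ribosomal protein promoters and of 5 in all promoters.

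Other motifs were searched over the 300 bases of each promoter window. The pyrimidine motif CTTTCC can lie inside the capitalised runs. It was found on the gene's own strand in 18 of the 45 (40%) and 14.5% of all promoters. Its reverse complement GGAAAG was found in 13.3% and 14.1%. CCGGAAG, a core of sites bound by ETS family factors, was found on either strand in 18 of the 45 (40%) and 16.8% of all. The GC box GGGCGG was about as frequent in both sets, at 27 of the 45 (60%) and 62.4%, as were the E-box CACGTG at 13.3% and 10.003% and the YY1 core AAGATGGC at 4.44% and 4.34% (each on both strands). TATAAA was found on the gene's own strand in 6.67% of the ribosomal protein promoters and 4.43% of all. These matches describe letters in the windows and carry no measurement of a bound factor.

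All values below are the authors' average signal, the mean tag density per position over a merged region, and levels are compared within a table only, since the merged regions differ between tables. Depth is known only as estimated tags inside the merged regions, 2543841 to 9163220 per library. The H3K9Bu library of sham hearts at 10% fat stands apart, with a median signal over all promoters of 46.4, against 23.7, 17.0 and 22.7 in the H3K9Bu libraries of TAC hearts at 10% fat, TAC hearts at 60% fat and sham hearts at 60% fat. In the H3K9ac library of sham hearts at 0% fat the signal was spread more evenly: the peak over the ribosomal protein regions was 2.10 times the average, against 2.49 to 2.70 times in the other 5 H3K9ac libraries. All 10 cardiomyocyte markers examined had a promoter region in each table, as did all 8 endothelial markers, and at 0% fat 8 of 8 fibroblast and 7 of 8 macrophage markers, so a region as such does not set heart muscle apart. At 0% fat 10 of 10 cardiomyocyte markers also reached the signal filter used below, against 7 of 8 endothelial, 2 of 8 macrophage and 0 of 8 fibroblast markers, while in the H3K9Bu table at 10 and 60% fat 3 of 10 cardiomyocyte markers did. The cardiomyocyte markers had H3K9ac signals from 46.5 to 106 in TAC hearts and from 28.2 to 106 in sham hearts at 0% fat.

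The regions over ribosomal protein genes were long and crowded. Their median length was 2661 bp at 0% fat, 2476 bp for H3K9ac and 1161 bp for H3K9Bu at 10 and 60% fat, against 1553, 1685 and 842 bp for all promoters. CpG islands, the unmethylated CG-rich stretches typical of housekeeping promoters, overlapped 87.0% of the regions at 0% fat, against 79.3% of all. The share was 87.3% among all promoters that reached the signal filter used below, as 53 of these 54 genes did. Many of these genes carry small nucleolar RNAs in their introns, and 15 of the 54 regions (27.8%) listed one, against 1.62% of the regions of all genes. Only 7 of the 54 regions listed a single gene, and no region served 2 of the 55 genes, which lie on 18 chromosomes.

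The strongest listed region was not always at the gene's own start. Its centre lay more than 2000 bp from the start for 12 of 54 genes at 0% fat, for 11 of 54 in the H3K9ac table and for 12 of 55 in the H3K9Bu table at 10 and 60% fat. A centre within 2000 bp was thus found for 77.8, 79.6 and 78.2% of these genes in the 3 tables, against 69.2, 69.7 and 67.7% of all promoters. Rplp2, an acidic protein of the ribosomal stalk, was represented by chr7:141454891-141458472, centred 9031 bp downstream of its start and 1493 bp inside Pnpla2, which encodes a triglyceride lipase. Rpl18, of the large subunit, was represented by chr7:45703767-45710459, centred at -10958 bp from its start and 1866 bp inside Dbp, a transcription factor with a daily rhythm. Rps28 rested on a region in Kank3, 11843 bp downstream of its start, and Rps29 on one at the start of Lrr1. Where a weaker region lies at the own start of such a gene, its ratio is given beside that of the stronger region for the genes whose result rests on it. Rpl13a and Rps29 have no region centred within 2000 bp of their start in any of the 3 tables, so each of their values comes from a more distant region.

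Ribosomal protein promoters carried more H3K9ac than most promoters. Their median signal was 83.5 in TAC hearts and 79.96 in sham hearts at 0% fat, 81.5 and 77.9 at 10% fat, and 81.3 and 79.9 at 60% fat. Among all promoters those medians stood at percentiles 73.2 in TAC and 84.3 in sham hearts at 0% fat, 80.2 and 78.1 at 10% fat, and 76.7 and 85.1 at 60% fat. H3K9Bu was high too but nearer the middle, with medians of 39.2 in TAC hearts and 43.4 in sham hearts at 0% fat, at percentiles 60.1 and 65.4. At 10 and 60% fat the H3K9Bu medians were 27.3 and 20.2 in TAC hearts, against 58.0 and 26.5 in sham hearts, at percentiles from 69.1 to 75.6. At 0% fat the authors' caller marked an H3K9ac interval in 52 of 54 of these regions in TAC hearts (96.2% of all promoters) and 51 in sham hearts (90.5%), and an H3K9Bu interval in 52 in TAC hearts (89.4%) and 52 in sham hearts (89.1%). H3K9ac was marked in all 54 in TAC and sham hearts at 10% fat (97 and 96% of all promoters) and at 60% fat (97.4 and 95%). For H3K9Bu the number marked was 35 of 55 in TAC hearts at 60% fat, where 38.5% of all promoters were marked, against 50 in sham hearts at 60% fat (68.5% of all), 53 in TAC hearts (71.1%) and 53 in sham hearts (94.9%) at 10% fat. The count of 35 thus belongs to the library with the fewest marked promoters in general.

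**Figure D1:**
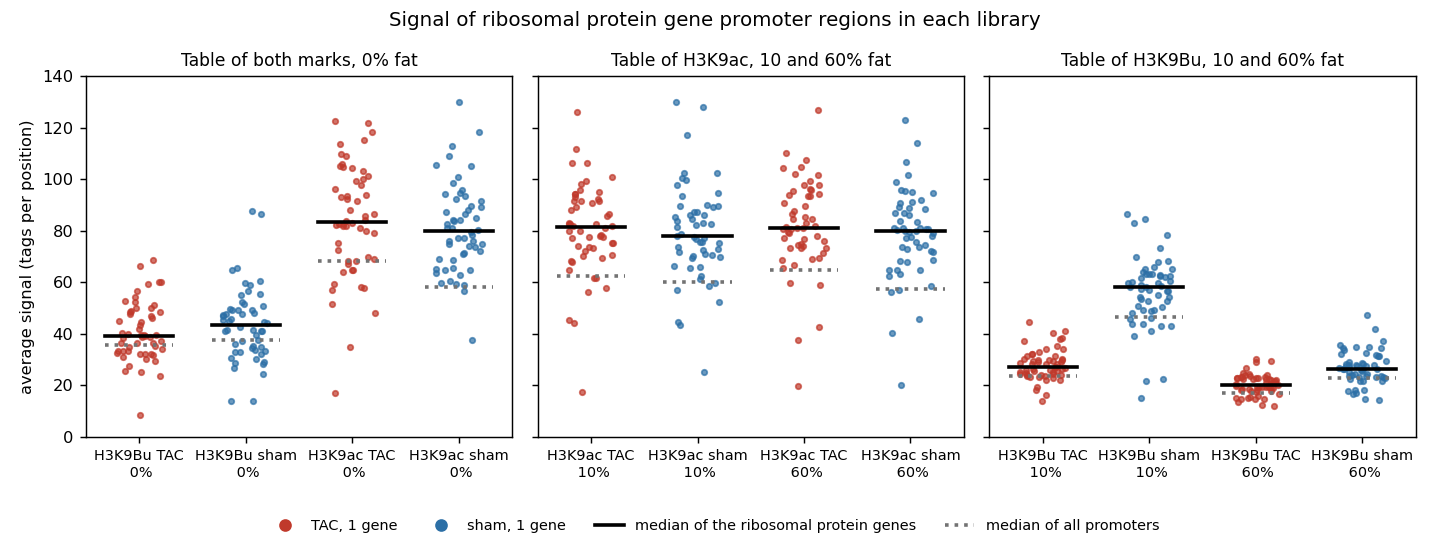
Average signal (tags per position) of each ribosomal protein gene's promoter region in the 12 libraries, with TAC libraries in red and sham libraries in blue. Each point is 1 gene, the black bar is the median of the ribosomal protein genes and the dotted bar that of all promoters. The black bar lies above the dotted one in each library, and the H3K9Bu library of sham hearts at 10% fat lies above the other 3 of its table, with a median of 58.0.

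Among genes measured at their own start, Rpl19 was near the top in all 3 tables, and Rpl7a at 0% fat and in the H3K9Bu table at 10 and 60% fat. In the H3K9ac table at 10 and 60% fat the mean signal of Rpl7a, 76.4, was below the median of the ribosomal protein genes, 79.4. H3K9ac at Rpl19, which reaches across the intersubunit face of the large subunit, was 103, 126 and 127 in TAC hearts at 0, 10 and 60% fat, against 106, 130 and 123 in sham hearts. H3K9Bu there was 48.6, 38.6 and 23.1 in TAC hearts at 0, 10 and 60% fat, against 55.7, 83.3 and 31.4 in sham hearts. H3K9ac at Rpl7a, which also hosts small nucleolar RNAs, was 115, 75.4 and 77.3 in TAC hearts at 0, 10 and 60% fat, against 118, 73.6 and 79.2 in sham hearts. H3K9Bu at Rpl7a was 49.9, 44.5 and 29.2 in TAC hearts at 0, 10 and 60% fat, against 51.6, 69.97 and 41.9 in sham hearts, the next to highest mean of the 55 genes at 10 and 60% fat. At 10 and 60% fat the sham 10% library gave the top H3K9Bu value of both genes.

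The lowest mean signals were those of Rps21, Rpl3 and Rpl13a at 0% fat and in the H3K9ac table at 10 and 60% fat, and those of Rpl15, Rpl30 and Rps20 in the H3K9Bu table at 10 and 60% fat. Rps21, of the small subunit, had H3K9ac signals of 17.1, 17.5 and 19.6 in TAC hearts at 0, 10 and 60% fat, against 37.5, 25.1 and 20.2 in sham hearts, and its mean signal was under the filter (the 25th percentile of mean signal over all promoters) at 0% fat and for H3K9ac at 10 and 60% fat, so no H3K9ac ratio is given for it. Its H3K9ac region at 10 and 60% fat is centred at -6046 bp from its start. H3K9Bu at Rps21 was 8.42, 23.9 and 23.9 in TAC hearts at 0, 10 and 60% fat, against 13.8, 15.0 and 32.5 in sham hearts. For Rps21 the sham 10% fat library was thus the lowest of the H3K9Bu table at 10 and 60% fat, not the highest. H3K9Bu at Rpl15, of the large subunit, was 16.2 and 12.5 in TAC hearts at 10 and 60% fat, against 21.7 and 14.8 in sham hearts, also under the filter. After the filter 53 of 54, 53 of 54 and 54 of 55 genes were left in the 3 tables, with 11647, 11785 and 10882 promoters in all. A promoter is counted here once for each gene, and these rest on 7402, 7477 and 6887 distinct regions. Shares, medians and fits over all promoters thus hold a shared region once for each of its genes.

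The next comparison asks how pressure load goes with H3K9ac at each diet. Ribosomal protein promoters had a lower ratio of TAC to sham signal than other promoters at 0% fat and, by less, at 60% fat. At 10% fat their ratio was level with that of the others. Ratios are log2 of signal plus 1, TAC over sham, taken relative to the median ratio of all promoters of the same pair of libraries, and an interval in parentheses is a 95% counting interval (exact, Clopper-Pearson), which covers counting error only. At 0% fat the median ratio of the 53 genes was -0.21, and 41 of the 53 lay below 0. At 10% fat it was -0.0025 with 28 of 53 below 0, and at 60% fat -0.086 with 44 of 53 below 0. All promoters split evenly about 0 by construction. Genes said here to lie below, above or level with the other promoters do so in such a relative ratio, not in signal level. The interquartile range of all promoters ran from -0.16 to 0.15 at 0% fat, from -0.068 to 0.072 at 10% fat and from -0.099 to 0.11 at 60% fat. The ratio of all promoters as deposited was 0.24, 0.053 and 0.15, so the median ribosomal protein gene as deposited was 0.030, 0.051 and 0.066 and its direction at 0 and 60% fat holds only relative to the other promoters. The median was -0.24 for large subunit genes and -0.13 for small subunit genes at 0% fat, and -0.099 and -0.082 at 60% fat.

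**Figure D2:**
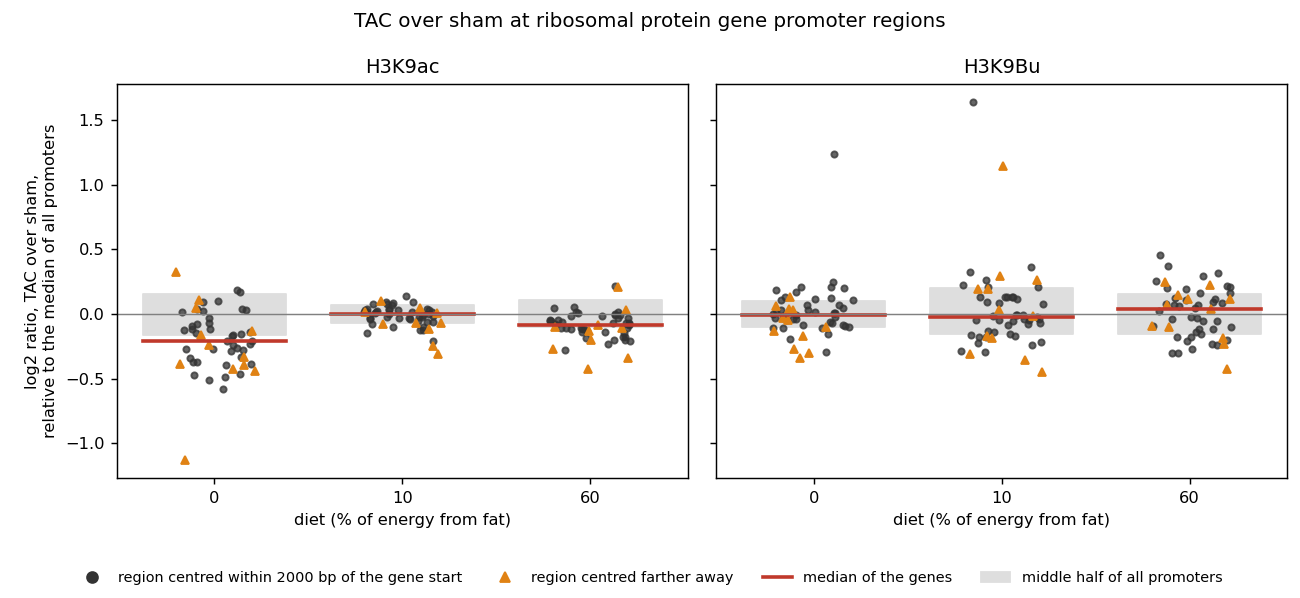
Log2 ratio of TAC over sham signal (vertical axis, relative to the median of all promoters) at 0, 10 and 60% fat for H3K9ac and H3K9Bu, with 1 point per ribosomal protein gene, triangles where the region is centred more than 2000 bp from the gene start, red lines for their medians and grey bands for the interquartile range of all promoters. The H3K9ac line sits at -0.21 at 0% fat, -0.0025 at 10% fat and -0.086 at 60% fat, and the H3K9Bu lines at -0.0091, -0.021 and 0.040.

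Few single genes stood far apart. A ratio at least 1.5-fold below the other promoters was seen for 1 of 53 genes at 0% fat (Rpl13a), where 1.7% of all promoters were that low, and none was 1.5-fold above, where 1.28% were. At 10% fat no ribosomal protein gene passed 1.5-fold (0.0509% of all promoters below and 0% above), and none did at 60% fat (0.552% below and 0.272% above). At all 3 diets, 20 of 53 genes lay below the other promoters, where 22.4% of promoters did, and 3 of 53 lay above, where 21.3% did.

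Large subunit genes showed the pattern in different degrees. H3K9ac at Rpl11, whose product with that of Rpl5 holds the p53 regulator Mdm2 when ribosome assembly fails, was 83.9, 91.7 and 102 in TAC hearts at 0, 10 and 60% fat, against 89.8, 89.6 and 95.5 in sham hearts. Its relative ratio was -0.34 (-0.46 to -0.21) at 0% fat, -0.02 at 10% fat and -0.06 at 60% fat. H3K9Bu at Rpl11 was 38.8, 25.8 and 21.6 in TAC hearts at 0, 10 and 60% fat, against 35.4, 54.2 and 28.2 in sham hearts. So Rpl11 stood below the other promoters in H3K9ac at 0% fat and near them at the other diets. H3K9ac at Rpl5 was 110, 91.5 and 95.8 in TAC hearts at 0, 10 and 60% fat, against 94.8, 86.2 and 86.9 in sham hearts, and its ratio stayed near 0 at each diet, at -0.03 (-0.17 to 0.12), 0.03 (-0.12 to 0.19) and -0.01 (-0.16 to 0.14). H3K9Bu at Rpl5 was 38.6, 25.9 and 19.3 in TAC hearts at 0, 10 and 60% fat, against 40.9, 48.8 and 27.3 in sham hearts. In the pair of libraries at 0% fat the counting intervals of Rpl11 and Rpl5 do not overlap.

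Rpl38 and Rpl22 are proteins with roles beyond bulk synthesis in mice, Rpl38 in the translation of Hox messengers and Rpl22 in lymphocyte development. H3K9ac at Rpl38 was 57.6, 61.7 and 71.5 in TAC hearts at 0, 10 and 60% fat, against 58.9, 58.7 and 64.7 in sham hearts, with ratios of -0.27 (-0.43 to -0.12), 0.02 and -0.0095. H3K9Bu at Rpl38 was 27.6, 25.2 and 22.6 in TAC hearts at 0, 10 and 60% fat, against 26.8, 40.97 and 27.6 in sham hearts. Rpl38 stood below the other promoters at 0% fat and near them at 10 and 60% fat. H3K9ac at Rpl22 was 81.8, 73.4 and 69.3 in TAC hearts at 0, 10 and 60% fat, against 77.2, 70.5 and 71.95 in sham hearts, with ratios of -0.16 (-0.31 to -0.0025), 0.0054 and -0.20 (-0.36 to -0.05). H3K9Bu at Rpl22 was 36.4, 22.1 and 14.6 in TAC hearts at 0, 10 and 60% fat, against 44.3, 42.9 and 21.6 in sham hearts.

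At the other end, Rpl4 and Rpl30, both of the large subunit, lay above the other promoters at each diet, though by more than counting error only for Rpl4 at 60% fat. H3K9ac at Rpl4 was 105, 89.2 and 105 in TAC hearts at 0, 10 and 60% fat, against 87.9, 84.8 and 80.7 in sham hearts, with a ratio of 0.22 (0.09 to 0.35) at 60% fat, the highest of the 53 genes there, and of 0.02 and 0.02 at 0 and 10% fat. H3K9Bu at Rpl4 was 48.6, 25.7 and 14.7 in TAC hearts at 0, 10 and 60% fat, against 47.6, 54.1 and 18.4 in sham hearts. H3K9ac at Rpl30 was 82.5, 81.9 and 81.1 in TAC hearts at 0, 10 and 60% fat, against 65.2, 78.03 and 72.1 in sham hearts, with ratios of 0.10, 0.02 and 0.01. H3K9Bu at Rpl30 was 41.9, 18.2 and 13.4 in TAC hearts at 0, 10 and 60% fat, against 47.9, 43.9 and 14.4 in sham hearts, among the lowest means of the H3K9Bu table at 10 and 60% fat. TAC libraries were above sham libraries in H3K9ac at both genes at each diet as deposited. With peak signal in place of average signal, the mean ratio of Rpl4 over the 3 diets was -0.15, against 0.08.

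Rpl12, Rpl13 and Rpl10a are large subunit genes named for other contrasts. H3K9ac at Rpl12, at the base of the stalk, was 68.5, 78.2 and 84.7 in TAC hearts at 0, 10 and 60% fat, against 81.3, 71.7 and 79.8 in sham hearts. H3K9Bu at Rpl12 was 32.6, 28.5 and 19.7 in TAC hearts at 0, 10 and 60% fat, against 30.2, 52.8 and 24.2 in sham hearts. Rpl12 had the lower H3K9ac signal in TAC hearts at 0% fat and the higher one at the other diets, with relative ratios of -0.48, 0.07 and -0.07. H3K9ac at Rpl13 was 80.9, 91.4 and 87.8 in TAC hearts at 0, 10 and 60% fat, against 86.4, 82.3 and 89.2 in sham hearts. H3K9Bu at Rpl13 was 32.2, 34.2 and 23.2 in TAC hearts at 0, 10 and 60% fat, against 34.8, 60.1 and 26.5 in sham hearts. Rpl13 also lay below the other promoters at 0% fat, with a relative H3K9ac ratio of -0.33. H3K9ac at Rpl10a was 96.3, 90.9 and 93.7 in TAC hearts at 0, 10 and 60% fat, against 91.5, 82.98 and 89.02 in sham hearts. H3K9Bu at Rpl10a was 52.6, 28.9 and 22.8 in TAC hearts at 0, 10 and 60% fat, against 46.8, 50.3 and 28.9 in sham hearts, and its relative H3K9Bu ratios of 0.25, 0.22 and 0.06 were above 0 at each diet.

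The stalk proteins Rplp0, Rplp1 and Rplp2 recruit translation factors to the large subunit. H3K9ac at Rplp0 was 91.6, 80.1 and 85.4 in TAC hearts at 0, 10 and 60% fat, against 76.1, 81.6 and 73.7 in sham hearts, with relative ratios of 0.03, -0.08 and 0.06. H3K9Bu at Rplp0 was 33.4, 29.8 and 18.8 in TAC hearts at 0, 10 and 60% fat, against 37.8, 68.2 and 17.9 in sham hearts. H3K9ac at Rplp1 was 119, 95.7 and 102 in TAC hearts at 0, 10 and 60% fat, against 93.6, 101 and 91.3 in sham hearts. H3K9Bu at Rplp1 was 59.96, 26.3 and 15.5 in TAC hearts at 0, 10 and 60% fat, against 64.6, 62.6 and 23.98 in sham hearts. Rplp1 gave relative H3K9ac ratios of 0.10, -0.12 and 0.0063, with no common direction. The region that represents Rplp2, over Pnpla2, had H3K9ac signals of 97.99, 98.1 and 93.9 in TAC hearts at 0, 10 and 60% fat, against 113, 117 and 107 in sham hearts. H3K9Bu there was 66.3, 41.2 and 30.3 in TAC hearts at 0, 10 and 60% fat, against 86.7, 84.7 and 47.2 in sham hearts. In H3K9ac this region stood below the other promoters at each diet, with ratios of -0.44 (-0.54 to -0.35), -0.31 (-0.41 to -0.21) and -0.34 (-0.44 to -0.24). The region at the own start of Rplp2 gave -0.15, -0.05 and -0.09, with H3K9ac signals at 0% fat of 107 in the TAC library, against 101 in the sham library. The start of Rplp2 itself was closer to the other promoters than the region in Pnpla2 at each diet.

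Small subunit genes spread widely in H3K9ac at 0% fat, from Rps2, next to lowest of the 53, to the 4 highest. H3K9ac at Rps2, which lines the messenger entry channel, was 83.1, 77.4 and 74.2 in TAC hearts at 0, 10 and 60% fat, against 105, 75.6 and 81.1 in sham hearts. H3K9Bu for Rps2 was 36.3, 32.05 and 22.1 in TAC hearts at 0, 10 and 60% fat, against 41.3, 56.98 and 31.4 in sham hearts, but at 10 and 60% fat its H3K9Bu region is another one, centred 315 bp inside Ndufb10 and 4010 bp downstream of the start of Rps2. At the own start of Rps2, H3K9Bu was 19.8 in the TAC library, against 54.6 in the sham library at 10% fat, and 16.5 in the TAC library, against 19.7 in the sham library at 60% fat. Rps2 had relative H3K9ac ratios of -0.58 (-0.66 to -0.50), -0.02 (-0.11 to 0.07) and -0.28 (-0.37 to -0.19). Its region at 0% fat, chr17:24718992-24724758, lists 7 genes, among them Rpl3l. H3K9ac at Rps19, the gene most often mutated in human Diamond-Blackfan anaemia, was 64.01, 73.9 and 73.5 in TAC hearts at 0, 10 and 60% fat, against 70.97, 70.2 and 72.8 in sham hearts. H3K9Bu at Rps19 was 29.4, 30.4 and 17.9 in TAC hearts at 0, 10 and 60% fat, against 33.1, 73.4 and 25.9 in sham hearts. Rps19 stood below the other promoters in H3K9ac at 0% fat, at -0.39 (-0.50 to -0.28), and less so at 60% fat, at -0.14 (-0.26 to -0.02). H3K9ac at Rpsa, which is also known as a laminin receptor, was 69.2, 70.1 and 73.2 in TAC hearts at 0, 10 and 60% fat, against 71.4, 66.4 and 67.9 in sham hearts. H3K9Bu at Rpsa was 31.8, 24.3 and 23.1 in TAC hearts at 0, 10 and 60% fat, against 30.5, 56.6 and 28.1 in sham hearts. Rpsa differed from the other promoters in H3K9ac at 0% fat, at -0.28 (-0.45 to -0.12), and by no more than its counting error at 10 and 60% fat.

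Rps6, the phosphorylated target of S6 kinase in the growth pathway, and Rps9 were measured in regions centred within 2000 bp of their starts. H3K9ac at Rps6 was 104, 92.4 and 96.3 in TAC hearts at 0, 10 and 60% fat, against 92.5, 87.3 and 86.8 in sham hearts, and its relative ratios of -0.07 (-0.18 to 0.05), 0.03 (-0.09 to 0.15) and -0.0034 (-0.12 to 0.12) have counting intervals that include 0 at each diet. H3K9Bu at Rps6 was 46.0, 26.8 and 21.04 in TAC hearts at 0, 10 and 60% fat, against 49.6, 56.5 and 24.2 in sham hearts. H3K9ac at Rps9 was 123, 64.8 and 68.8 in TAC hearts at 0, 10 and 60% fat, against 101, 62.5 and 62.4 in sham hearts, with relative ratios of 0.04, -0.0025 and -0.01. H3K9Bu at Rps9 was 60.3, 29.6 and 19.5 in TAC hearts at 0, 10 and 60% fat, against 65.5, 63.3 and 21.5 in sham hearts. Rps6 and Rps9 were level with the other promoters in H3K9ac. H3K9ac at Rps18 was 67.1, 106 and 105 in TAC hearts at 0, 10 and 60% fat, against 74.2, 99.7 and 102 in sham hearts. H3K9Bu for Rps18 was 33.2, 29.7 and 24.2 in TAC hearts at 0, 10 and 60% fat, against 34.4, 49.2 and 29.5 in sham hearts, where the values at 10 and 60% fat come from a region 320 bp inside B3galt4, centred 4473 bp downstream of the start of Rps18. At its own start H3K9Bu was 26.04 in the TAC library, against 52.2 in the sham library at 10% fat, and 19.2 in the TAC library, against 27.5 in the sham library at 60% fat. Rps18 was lower in H3K9ac at 0% fat, at -0.38 (-0.47 to -0.30), over a region of 6959 bp centred 2329 bp from its start, while its H3K9ac region at 10 and 60% fat is centred 233 bp from it.

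Rps27a, made as a fusion with ubiquitin, and Rps20 and Rps29, of the small subunit head, had the 3 highest ratios at 0% fat. H3K9ac at Rps27a was 114, 106 and 107 in TAC hearts at 0, 10 and 60% fat, against 84.4, 103 and 95.3 in sham hearts, with a ratio of 0.19 (0.06 to 0.33) at 0% fat and of -0.0021 and 0.02 at 10 and 60% fat. H3K9Bu at Rps27a was 59.3, 28.6 and 18.1 in TAC hearts at 0, 10 and 60% fat, against 60.7, 59.8 and 23.3 in sham hearts. H3K9ac at Rps20 was 101, 86.7 and 93.5 in TAC hearts at 0, 10 and 60% fat, against 75.98, 89.5 and 81.3 in sham hearts, with ratios of 0.17 (0.0068 to 0.35), -0.10 and 0.05. H3K9Bu at Rps20 was 43.3, 19.4 and 11.97 in TAC hearts at 0, 10 and 60% fat, against 39.7, 43.8 and 16.6 in sham hearts. Rps27a and Rps20 were above the other promoters at 0% fat by slightly more than counting error and on either side of them at 10 and 60% fat. The region of Rps29, at the start of Lrr1, had H3K9ac signals of 93.7, 77.8 and 81.4 in TAC hearts at 0, 10 and 60% fat, against 62.9, 69.8 and 63.2 in sham hearts and ratios of 0.33 (0.11 to 0.57), 0.10 and 0.21 (0.0049 to 0.43). H3K9Bu there was 52.7, 27.1 and 15.1 in TAC hearts at 0, 10 and 60% fat, against 56.8, 62.5 and 23.0 in sham hearts. With peak signal in place of average signal, the mean H3K9ac ratio over the 3 diets was -0.02 for Rps29, against 0.21 with average signal, and -0.09 for Rps27a, against 0.07.

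Several of the extremes rest on neighbouring genes. H3K9ac in the Dbp region that represents Rpl18 was 122, 112 and 110.4 in TAC hearts at 0, 10 and 60% fat, against 129.9, 128 and 114 in sham hearts. H3K9Bu there was 68.8, 33.1 and 24.3 in TAC hearts at 0, 10 and 60% fat, against 87.9, 86.5 and 34.4 in sham hearts. Its H3K9ac ratios were -0.33 (-0.40 to -0.26), -0.25 (-0.32 to -0.18) and -0.20 (-0.27 to -0.13), and the region at the own start of Rpl18 gave -0.65, -0.10 and -0.23. Both the Dbp region and the start of Rpl18 thus stood below the other promoters. H3K9ac in the Kank3 region that represents Rps28 was 69.9, 75.2 and 74.9 in TAC hearts at 0, 10 and 60% fat, against 79.6, 78.6 and 81.3 in sham hearts. H3K9Bu for Rps28, in Kank3 at 0% fat and at its own start at 10 and 60% fat, was 36.6, 29.5 and 18.8 in TAC hearts at 0, 10 and 60% fat, against 49.3, 62.2 and 23.6 in sham hearts. Its H3K9ac ratios were -0.42, -0.12 and -0.27, and its own start gave -0.49, -0.14 and -0.0061. At 60% fat the own start of Rps28 was level with the other promoters, unlike the Kank3 region. The lowest ratio at 0% fat, -1.13 (-1.57 to -0.75) for Rpl13a, comes from a region of 503 bp at chr7:45121696-45122199, centred 6798 bp downstream of its start and 190 bp downstream of Mir150. H3K9ac for Rpl13a was 34.9, 44.02 and 42.6 in TAC hearts at 0, 10 and 60% fat, against 65.6, 44.5 and 40.5 in sham hearts. H3K9Bu for Rpl13a was 25.2, 24.9 and 29.4 in TAC hearts at 0, 10 and 60% fat, against 28.7, 22.5 and 34.9 in sham hearts. At 10 and 60% fat its region lies instead at Flt3l, so the value at 0% fat and those at the other diets are not the same stretch of DNA. The 41 genes with a region centred within 2000 bp of their start had a median ratio of -0.17 at 0% fat and the other 12 one of -0.28.

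Rpl3, which builds the peptidyl transferase centre, is represented by short regions. H3K9ac for Rpl3 was 48.2, 45.4 and 37.7 in TAC hearts at 0, 10 and 60% fat, against 56.5, 43.4 and 45.8 in sham hearts. H3K9Bu for Rpl3 was 32.2, 13.8 and 22.4 in TAC hearts at 0, 10 and 60% fat, against 13.9, 39.3 and 25.3 in sham hearts. Its relative H3K9ac ratios were -0.47 (-0.90 to -0.06), 0.01 (-0.40 to 0.44) and -0.43 (-0.87 to -0.0013), each from 84 to 106 estimated tags per library. At 0% fat the region spans 418 bp inside Rpl3, and at 10 and 60% fat the H3K9ac region lies 334 bp inside Syngr1, centred at -8262 bp from the start of Rpl3, and the H3K9Bu region 248 bp inside Syngr1.

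The other 23 genes are Rpl6, Rpl7, Rpl8, Rpl14, Rpl23, Rpl26, Rpl27a, Rpl28, Rpl32, Rpl34, Rpl35 and Rpl37 of the large subunit and Rps3, Rps7, Rps10, Rps12, Rps13, Rps14, Rps15, Rps15a, Rps16, Rps24 and Rps25 of the small subunit. Their H3K9ac signals ran from 51.7 to 106 in TAC hearts and from 59.9 to 98.7 in sham hearts at 0% fat. Their relative H3K9ac ratios ran from -0.51 (Rps15) to 0.11 (Rps25) at 0% fat, with 21 of 23 below 0, from -0.14 (Rpl23) to 0.14 (Rps15) at 10% fat, with 13 of 23 below 0, and from -0.23 (Rps15) to 0.034 (Rpl35) at 60% fat, with 21 of 23 below 0. Their relative H3K9Bu ratios ran from -0.29 (Rpl28) to 0.21 (Rps24) at 0% fat, from -0.29 (Rpl23) to 0.26 (Rpl8) at 10% fat and from -0.30 (Rps12) to 0.32 (Rps3) at 60% fat. These genes lay mostly below the other promoters in H3K9ac at 0 and 60% fat and on both sides of them at 10% fat. At 0% fat the regions of Rpl8, Rpl35, Rps10 and Rps25 are centred over 2000 bp from their starts, and the own starts gave H3K9ac ratios of -0.54 for Rpl8, -0.49 for Rpl35, -0.47 for Rps10 and 0.10 for Rps25, against -0.39, -0.16, -0.13 and 0.11 in the regions used. At 60% fat the own start of Rpl35 gave -0.20, below the other promoters, where the region used gave 0.03, and that of Rps25 gave 0.07, where the region used gave -0.13.

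Region length moved with the ratio at 0% fat. The Spearman correlation of length with the H3K9ac ratio was -0.59 across the 53 genes and -0.54 across all promoters, which share the same pair of libraries. The 26 longer regions of ribosomal protein genes had a median ratio of -0.33 and the 27 shorter ones of -0.066. Compared at like length, the medians were -0.37 for 18 ribosomal protein regions of at least 3000 bp, against -0.22 for 1776 promoters with such regions. Between 2000 and 3000 bp they were -0.16 (20 genes) and -0.074 (3022 promoters), and under 2000 bp 0.025 (15 genes) and 0.081 (6849 promoters). Ribosomal protein regions therefore stood lower than other regions in each length class, by less than the gap seen without regard to length. At 60% fat the medians were -0.13, -0.078 and -0.055 for ribosomal protein regions from the longest class to the shortest, against -0.043, -0.0028 and 0.014 for all promoters. At 10% fat they were -0.020, -0.0021 and 0.024, against -0.021, -0.000065 and 0.0057. The sham 0% fat H3K9ac library, in which the signal was spread more evenly, enters each 0% fat ratio, and its part in the result was not tested.

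**Figure D3:**
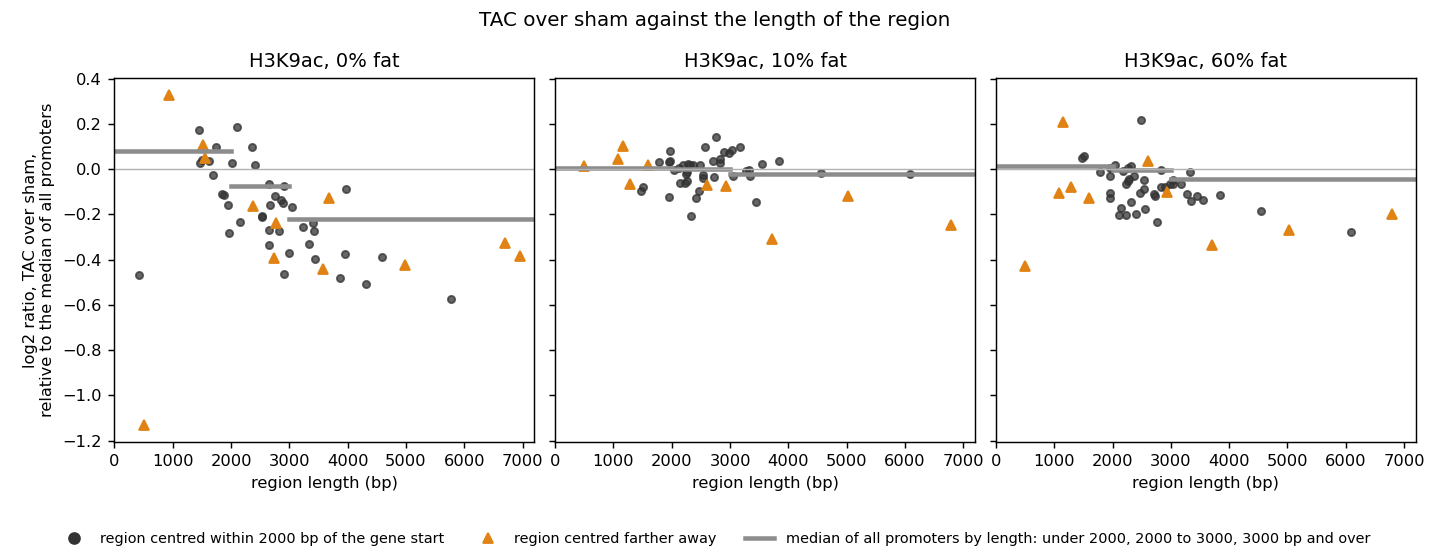
Log2 ratio of TAC over sham H3K9ac (vertical axis, relative to the median of all promoters) against the length of the region in bp at 0, 10 and 60% fat, 1 point per ribosomal protein gene, with triangles for regions centred more than 2000 bp from the gene start and grey bars for the median of all promoters in 3 length classes. Longer regions lie lower at 0% fat, where the bar for 3000 bp and over is at -0.22 and the one under 2000 bp at 0.081.

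A fit over the 3 diets asked for a TAC difference that the diets share. With limma on the 6 H3K9ac libraries, diet as a block and Benjamini-Hochberg adjustment over 11221 promoters, no ribosomal protein gene of 53 was called lower at an adjusted p of 0.05, where 0.0178% of all promoters were, and none was called higher, where 0% were. At an unadjusted p of 0.05, 10 of the 53 were lower and 1 was higher, against 1014 lower and 1000 higher among all promoters. The median coefficient of the 53 was -0.10, and 45 of 53 were below 0. The smallest adjusted p by limma was that of Rplp2, 0.060, with a coefficient of -0.36 ± 0.065 (SE), lower in 3 of 3 pairs, and that value belongs to the Pnpla2 region. Rpl18 followed with -0.26 ± 0.064 and a limma adjusted p of 0.11, lower in 3 of 3 pairs. Rps28 had -0.27 ± 0.076 (limma adjusted p = 0.14), Rps29 0.21 ± 0.070 (limma adjusted p = 0.19) and Rpl3 -0.29 ± 0.10 (limma adjusted p = 0.20). At 10 and 60% fat all 5 rest on H3K9ac regions centred more than 2000 bp from their start. Rps2 had -0.29 ± 0.10, with a limma adjusted p of 0.21. Calls moved with the diets in the fit. Without 0% fat Rplp2 was called lower, where 285 of all 11221 promoters were. Without 10% fat Rpl3, Rplp2 and Rps2 were called lower, where 229 of all were. Without 60% fat none of the 53 was, where 3 of all were. As deposited, with no centring, Rps29 was called higher, where 1008 of all 11221 were.

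The TAC over sham ratio of H3K9Bu was level with that of the other promoters. The median relative ratio was -0.0091 at 0% fat with 28 of 53 genes below 0, -0.021 at 10% fat with 32 of 54 below 0, and 0.040 at 60% fat with 25 of 54 below 0. All promoters as deposited shifted by -0.081, -1.005 and -0.39 in these pairs, so as deposited the ribosomal protein median was -0.090, -1.03 and -0.35. The shift at 10% fat involves the sham library that stands apart, and its part in the H3K9Bu ratios was not tested. Rpl3 at 0% fat was the one gene past 1.5-fold above, at 1.24 (0.60 to 2.01), from 60 tags in the TAC library and 26 in the sham library, where 0.421% of all promoters were that high and 0.309% that low. At 10% fat Rpl13a, at 1.14 (0.60 to 1.71), and Rps21, at 1.64 (0.94 to 2.503), were past 1.5-fold above, where 8.27% of promoters were, and none was past it below, where 0.533% were. At 60% fat no gene of 54 passed 1.5-fold in either direction, where 1.14% of promoters were below and 1.68% above.

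Across diets, H3K9Bu directions were mixed. At all 3 diets 9 of 53 genes lay below the other promoters (18.8% of all promoters did) and 6 of 53 above (17.6% did). By limma on the 6 H3K9Bu libraries, 0 of 53 genes were called lower and 0 higher, as for all 10195 promoters (0% in either direction). At an unadjusted p of 0.05, 2 of the 53 were lower and 0 higher, against 429 lower and 580 higher among all promoters. Without 10% fat, Rpl3 was called higher, where 27 of all 10195 promoters were. The 2 lower at an unadjusted p of 0.05 were Rpl18, with a coefficient of -0.24 ± 0.092 (SE) over the Dbp region, and Rpl24, with -0.26 ± 0.10. Both had a limma adjusted p of 0.50 and were lower in 3 of 3 pairs. Rpl24, of the large subunit, is represented at 0% fat by a region centred 668 bp inside Zbtb11, 8197 bp downstream of its own start. H3K9Bu there was 54.4, 24.2 and 15.2 in TAC hearts at 0, 10 and 60% fat, against 59.6, 61.6 and 27.5 in sham hearts, and H3K9ac was 109, 101 and 99.5 in TAC hearts at 0, 10 and 60% fat, against 109, 103 and 95.9 in sham hearts. At 60% fat Rpl24 had the lowest relative H3K9Bu ratio of the 54 genes, -0.43 (-0.74 to -0.19). At the own start of Rpl24 the H3K9Bu ratios were -0.02, 0.35 and -0.10 at 0, 10 and 60% fat, and at that of Rpl18 they were -0.0098, 0.01 and -0.04, so the lower values of both belong to the Zbtb11 and Dbp regions. H3K9ac at the own start of Rpl24 gave -0.31, -0.04 and -0.0033, against -0.24, -0.07 and -0.10 in the Zbtb11 region. Rpl38 and Rps18 lay on the other side, with relative H3K9Bu ratios of 0.12, 0.33 and 0.12 for Rpl38 and 0.03, 0.29 and 0.12 for Rps18 at 0, 10 and 60% fat, each with a counting interval that includes 0. The own start of Rps18 gave 0.03 and -0.11 at 10 and 60% fat, where the values of the rule belong to the B3galt4 region.

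Dietary fat was compared within each surgery at 60 against 10% fat. In sham hearts, the H3K9ac ratio of 60 over 10% fat was slightly higher at ribosomal protein promoters than at other promoters. The median relative ratio was 0.074, with 36 of 53 genes above 0. In TAC hearts the median was -0.010 with 24 of 53 above 0. No gene passed 1.5-fold in sham hearts (0.017% of all promoters below and 0.00849% above) or in TAC hearts (0.0594% below and 0.00849% above). The highest by mean of both surgeries were Rpl38, at 0.17 (0.01 to 0.33) in TAC and 0.20 (0.04 to 0.37) in sham hearts, Rpl12 at 0.07 and 0.21, and Rpl11 at 0.11 and 0.15. The lowest were Rpl3, at -0.30 in TAC and 0.14 in sham hearts, Rpl18 at -0.06 and -0.10, and Rplp2 at -0.10 and -0.07. The own starts gave -0.05 in TAC and 0.08 in sham hearts for Rpl18 and 0.04 and 0.09 for Rplp2, so in sham hearts both starts lay above 0. With peak signal the mean of both surgeries for Rpl11 was -0.03, against 0.13 with average signal. The sham libraries at 60 and 10% fat also enter the TAC ratios given above, so these values are not independent of them.

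H3K9Bu at 60 over 10% fat had medians of -0.055 in TAC hearts, with 30 of 54 genes below 0, and -0.033 in sham hearts, with 29 of 54 below 0. In TAC hearts Rpl3, at 1.11, and Rpl13a, at 0.68, were past 1.5-fold above (4.19% of all promoters) and none was past it below (1.97%). In sham hearts Rplp0, at -0.80 (-1.37 to -0.40), and Rps23, at -0.71 (-1.15 to -0.40), were past 1.5-fold below (2.12% of all promoters), and Rps21, at 2.14, and Rpl13a, at 1.68, past it above (11.1%). H3K9Bu at Rps23, which helps the small subunit to read codons accurately, was 46.7, 24.1 and 16.7 in TAC hearts at 0, 10 and 60% fat, against 52.4, 60.6 and 16.9 in sham hearts, and H3K9ac was 100.2, 83.1 and 84.8 in TAC hearts at 0, 10 and 60% fat, against 82.5, 75.6 and 77.8 in sham hearts. The sham library at 10% fat, which stands apart, is the denominator of each of these sham ratios. H3K9Bu at Rplp0 was 17.9 in sham hearts at 60% fat, against 68.2 at 10% fat, and 18.8 in TAC hearts at 60% fat, against 29.8 at 10% fat.

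Both marks share a table at 0% fat, so they can be set against each other there. H3K9Bu was lower relative to H3K9ac at ribosomal protein promoters than at other promoters, with a median ratio of -0.11 in TAC hearts (39 of 53 genes below 0) and of -0.29 in sham hearts (44 of 53 below 0). Region length went with this ratio too, with a Spearman correlation across all promoters of -0.12 in TAC and -0.47 in sham hearts. In sham hearts the medians of ribosomal protein regions were -0.35, -0.24 and -0.17 from the longest class to the shortest. Those of all promoters were -0.17, -0.094 and 0.12. In TAC hearts they were -0.053, -0.13 and -0.078, against 0.0083, -0.031 and 0.018. The part of length was not tested. In TAC hearts no gene passed 1.5-fold below or above, where 0.249 and 2.76% of all promoters did. In sham hearts 8 genes passed 1.5-fold below, where 2.11% of promoters did, and none above, where 6.11% did. The lowest by mean of both surgeries were Rpl5, at -0.55 (-0.78 to -0.38) in TAC and -0.57 (-0.79 to -0.40) in sham hearts, Rpl13, at -0.37 and -0.67, and Rpl3, at 0.37 and -1.32. Rpl5 and Rpl13 were low in both surgeries, and Rpl3 lay on opposite sides of 0. The highest were Rplp2, at 0.38 in TAC and 0.24 in sham hearts, Rps29, at 0.11 and 0.48, and Rpl27, at 0.09 and 0.32, each from a region centred over 2000 bp from the gene's start. For Rpl27, whose region lies at Ifi35 at 0% fat and at its own start at 10 and 60% fat, H3K9ac was 72.5, 80.99 and 86.4 in TAC hearts at 0, 10 and 60% fat, against 59.2, 90.1 and 86.01 in sham hearts, and H3K9Bu was 40.02, 31.6 and 22.7 in TAC hearts at 0, 10 and 60% fat, against 47.8, 58.7 and 32.3 in sham hearts. At the own start of Rpl27 H3K9ac at 0% fat was 70.01 in the TAC library, against 89.9 in the sham library, a ratio of -0.60, where the Ifi35 region gave 0.05. H3K9Bu over H3K9ac at that start was -0.37 in TAC and -0.85 in sham hearts, below 0 in both, and at the own start of Rplp2 it was 0.16 and -0.03. The sham 0% fat H3K9ac library is the denominator both of the sham ratio here and of the TAC over sham ratio at 0% fat, so these results share it.

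**Figure D4:**
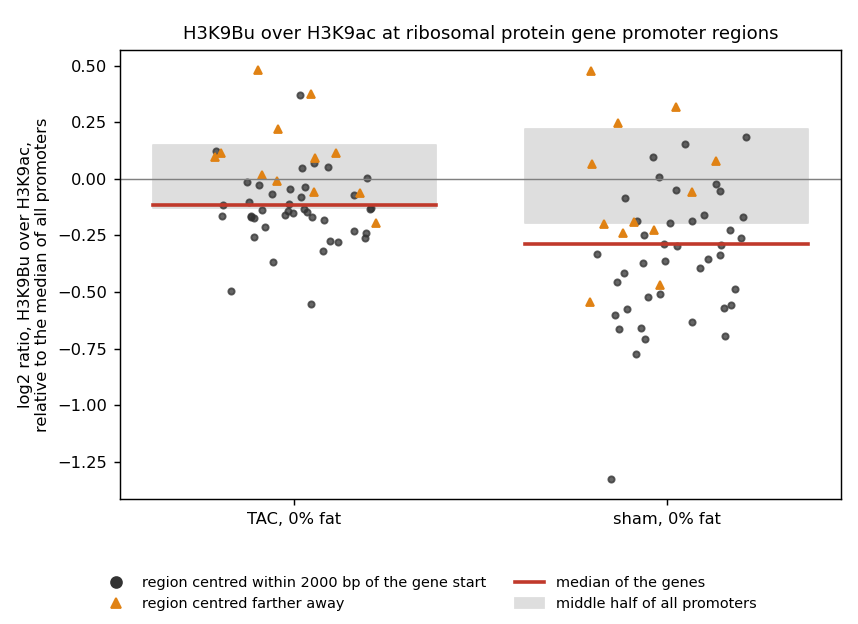
Log2 ratio of H3K9Bu over H3K9ac signal at 0% fat (vertical axis, relative to the median of all promoters) in TAC and sham hearts, with 1 point per ribosomal protein gene, triangles for regions centred more than 2000 bp from the gene start, red lines for their medians and grey bands for the interquartile range of all promoters. The median is -0.11 in TAC hearts and -0.29 in sham hearts.

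Other parts of the translation machinery were set beside these genes. The other cytosolic ribosomal protein genes showed the same order of diets in H3K9ac after TAC, with medians of -0.20 at 0% fat (18 of 22 below 0), -0.02 at 10% fat (15 of 22) and -0.10 at 60% fat (17 of 22). Mitochondrial ribosomal protein genes had medians of 0.03, 0.01 and -0.06 over 73 genes, ribosome biogenesis genes -0.07, -0.05 and -0.0068, and translation factor genes -0.02, 0.0046 and 0.02. The regions of the mitochondrial ribosomal protein genes were shorter at 0% fat, with a median of 1373 bp, against 2665 bp for the 53 cytosolic ribosomal protein genes and 2315 bp for the other cytosolic ones. By limma over the 3 diets no gene of these 4 lists was called in H3K9ac, with 3 of 21 other cytosolic, 4 of 73 mitochondrial, 5 of 45 biogenesis and 1 of 37 translation factor genes lower at an unadjusted p of 0.05, and 0, 4, 1 and 2 of them higher. In H3K9Bu none was called either, with 1 of 20, 1 of 62, 3 of 39 and 0 of 37 lower at an unadjusted p of 0.05 in the same order, and 0, 1, 1 and 2 higher. Rpl3l, the paralog of Rpl3 in heart and skeletal muscle, shares the region of Rps2, centred at -5954 bp from the start of Rpl3l at 0% fat, and so has the values of Rps2.

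Cardiomyocyte marker promoters had a lower median TAC over sham ratio in H3K9ac than the ribosomal protein genes at each diet. Their median relative H3K9ac ratio was -0.26 at 0% fat (8 of 10 below 0), -0.31 at 10% fat (8 of 9) and -0.41 at 60% fat (9 of 9). Their summed H3K9ac signal was 683, 578 and 483 in TAC hearts at 0, 10 and 60% fat, against 669, 669.5 and 586 in sham hearts. At 10% fat the cardiomyocyte markers were thus low while the ribosomal protein genes were level with the other promoters. Macrophage markers passed the filter for 2 of 8 at 0% fat and 3 of 8 at 10 and 60% fat, with medians of -0.27, -0.07 and 0.35. The share of them with a region centred within 2000 bp of their start was 0% at 0% fat and 33.3% at 10 and 60% fat. Cd68 had the same H3K9ac coefficient in the limma fit, -0.040, as the translation factor gene Eif4a1. The macrophage medians thus rest mostly on regions away from the markers' own starts. Endothelial markers had 7 of 8 measured, with medians of -0.38, 0.05 and 0.10, and 0 of 8 fibroblast markers passed the filter. In H3K9Bu the cardiomyocyte medians were -0.46 at 0% fat (10 of 10 below 0), -0.09 at 10% fat (2 of 3) and -0.25 at 60% fat (2 of 3). The endothelial H3K9Bu medians were -0.22, 0.44 and 0.08. By limma in H3K9ac no cardiomyocyte or endothelial marker was called. At an unadjusted p of 0.05, 8 of 9 cardiomyocyte and 0 of 6 endothelial markers were lower. The part of cell makeup in the ribosomal protein ratios was not tested.

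**Figure D5:**
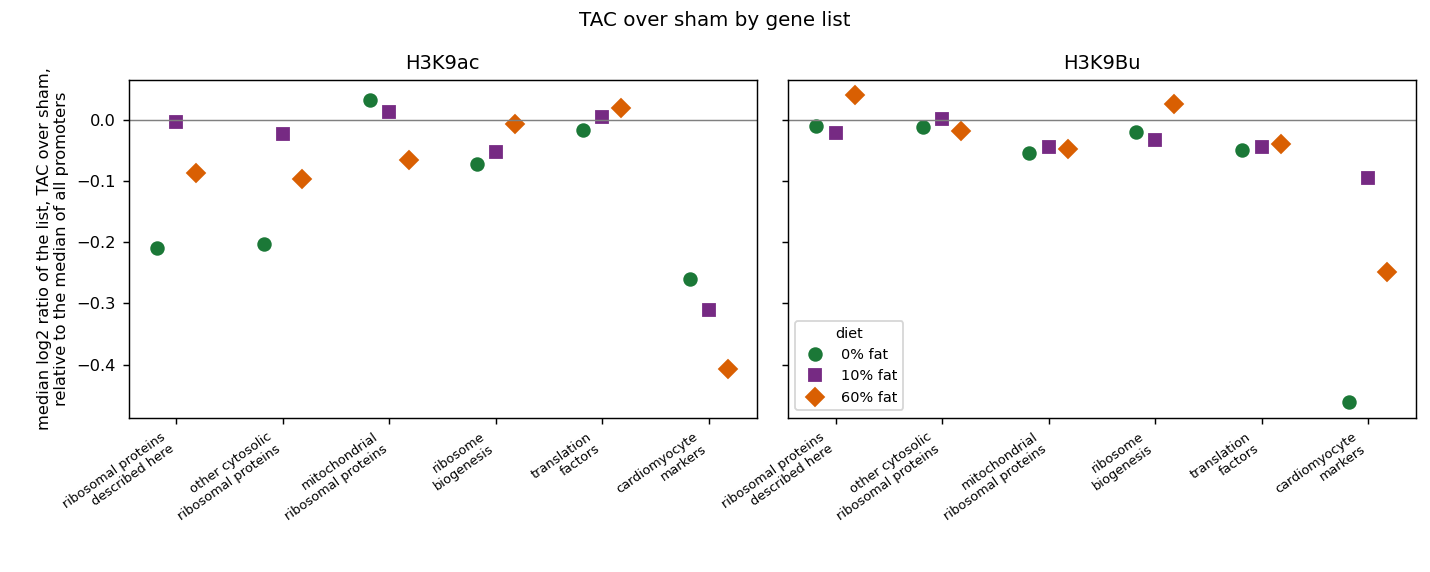
Median log2 ratio of TAC over sham (vertical axis, relative to the median of all promoters) for 6 gene lists at 0, 10 and 60% fat, for H3K9ac and H3K9Bu. In H3K9ac each cytosolic ribosomal protein list has its lowest median at 0% fat, at -0.21 for the genes described here and -0.20 for the others, and the cardiomyocyte markers lie at -0.26, -0.31 and -0.41.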

How the data were processed

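ChIP-seq signal was measured in 12 libraries of mouse heart, 1 for each combination of mark, surgery and diet, and 2 input libraries were not analysed here. Reads were aligned with BWA and intervals called with SICER on mm10, per the submitters' processing notes; tool versions and any scaling between libraries are not given in the sources used here. The authors deposited 3 tables of merged regions, one for both marks at 0% fat and one per mark at 10 and 60% fat, and the values used are the average signal (tag density) and peak signal of each region in each library as deposited. Estimated tag counts were recovered from the deposited tables, in which the tag column equals the larger average signal times region length over 224, in 483776 of 483776 cells within a relative tolerance of 1e-06.

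For each gene listed in a region with a promoter, the region of highest mean signal was kept, and ratios were taken for genes whose mean signal reached the 25th percentile of all promoters. Ratios are log2(signal + 1), which understates changes of low regions, centred on the median of all promoters of the pair. Exact Clopper-Pearson intervals at 95% treat estimated tags as independent counts. A limma fit (limma 3.58.1, R 4.3.3, empirical Bayes, diet as block, Benjamini-Hochberg at 0.05) used promoters measured at all 3 diets. Its residual holds diet-specific responses and library error together. It was tested on simulated data with the same effect at each diet and no diet-specific response. Those effects were larger than the coefficients of the ribosomal protein genes, so that test does not bear on differences of their size. Other steps used Python 3.11.15, pandas 2.3.3, scipy 1.17.1 and statsmodels 0.14.6.

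Genes given in every library are those with the 3 highest or lowest mean signals per table, the 5 highest or lowest mean TAC ratios per mark, the 3 highest or lowest diet and mark ratios, and a set chosen by role. The genes and lists were chosen with earlier results of these data known. Alternatives were ratios as deposited, lowess centring (fraction 0.3), peak signal, pseudocount 5, keeping low regions, only regions with a called interval in each library of the pair, regions centred within 2000 bp of the gene start, single-gene regions and each diet left out.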

Additional observations from a re-analysis of the deposited data

Results flagged for a closer look

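Rps15, of the small subunit, differed in direction between diets in H3K9ac. Its TAC over sham ratio relative to all promoters was 0.14 at 10% fat, the highest of the 53 genes there, against -0.51 at 0% fat and -0.23 at 60% fat, each by more than its counting error. Its H3K9ac region spans 4307 bp at 0% fat, centred 1780 bp from its start, and 2757 bp at 10 and 60% fat, centred 896 bp from it. These 2 regions overlap only in part. Promoters with regions of at least 3000 bp had a median ratio of -0.22 at 0% fat. The difference between diets was not tested, since each diet has 1 library per surgery.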

How the results depend on the processing

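Lowess centring, peak signal, pseudocount 5, keeping low regions, requiring a called interval in each library of the pair and regions near the gene start kept each median ratio of the ribosomal protein genes within the median counting interval of those genes. That interval holds the counting error of a single gene, so it is a loose criterion for a median over the list. For H3K9ac TAC over sham at 60% fat it ran from -0.22 to 0.057, on both sides of 0. Of 53 mean ratios of single genes, 10 moved beyond their counting intervals with peak signal: those of Rpl4, Rps27a, Rps29 (TAC, H3K9ac) and Rpl11 (diet, H3K9ac) turned below 0, and those of Rplp2 (TAC, H3K9ac, and mark), Rps2, Rps28 (TAC, H3K9ac), Rpl18 (TAC, H3K9Bu) and Rpl13 (mark) came nearer to 0. With regions near the gene start 7 of 43 moved: Rpl24 (TAC, H3K9Bu), Rpl27 (mark), Rpl18 and Rplp2 (diet, H3K9ac) changed sign, and Rplp2 (TAC, H3K9ac, and mark) and Rpl18 (TAC, H3K9Bu) came nearer to 0; the cause was not tested. Ratios without centring include the shift of all promoters, and with it the median TAC over sham ratio of H3K9ac, below 0 with centring at each diet, was above 0 at each. As deposited, that median was 0.030 at 0% fat, 0.051 at 10% fat and 0.066 at 60% fat, the H3K9Bu median -1.03 at 10% fat, the 60 over 10% fat H3K9Bu ratio -0.50 in TAC and -1.11 in sham hearts, and the H3K9Bu over H3K9ac ratio -1.05 in TAC and -0.91 in sham hearts. The share of genes below 0 as deposited was 41.5, 28.3 and 22.6% for H3K9ac at 0, 10 and 60% fat, 96.3 and 98.1% for H3K9Bu at 10 and 60% fat, and 94.4% in TAC and 96.3% in sham hearts for 60 over 10% fat in H3K9Bu. Among regions that list a single gene, 25% of 8 genes lay below 0 for H3K9Bu TAC over sham at 60% fat; the cause was not tested.

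In the limma fit, leaving out a diet gave 0 to 3 ribosomal protein genes called lower in H3K9ac and 0 to 1 called higher in H3K9Bu, and as deposited 1 was called higher in H3K9ac. Over all promoters the H3K9ac fit called 2 lower and 0 higher, 285 and 222 without 0% fat, 229 and 248 without 10% fat, 3 and 0 without 60% fat, 53 and 1008 as deposited, 0 and 0 with peak signal or with no filter, and 64 and 39 with regions centred within 2000 bp of the start, an alternative chosen after seeing the data. The H3K9Bu fit called 0 and 0, and 15 lower and 27 higher without 10% fat; the cause was not tested. TAC and sham libraries were paired by diet in each ratio and in the limma fit. Beyond that, no paired analysis was possible because each group has 1 library. Low tag numbers limit Rpl3, Rpl13a and Rps21, and 1 library per group limits each ratio.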
